A study of Mus musculus with 19 samples.

Results

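The subject is a single sample of NIH3T3, a mouse fibroblast cell line, in which FGF acted for 1 h before the MEK inhibitor U0126 was added, and which was measured at 7 h. It was chosen by its treatment label alone, and it is 1 of the 19 expression arrays of the study, from experiment 1. All cells had first been held for 48 h in 0.1% serum, which makes them quiescent. The late U0126 array (U0126 at 1 h, 20 uM, with bFGF at 50 ng/ml for 7 h) was set against 4 other states. These were early U0126 (the same FGF and U0126, but U0126 added at -0.5 h, 2 arrays at 7 h), FGF 7 h (bFGF at 50 ng/ml alone, 2 arrays), FGF 1 h (the state at which U0126 was added, 1 array) and quiescent cells with no FGF (3 arrays, of which replicates 1a and 1b, both of experiment 1, were averaged).

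Fibroblast growth factor (FGF) binds receptor tyrosine kinases at the cell surface, which act through RAS and RAF on MEK, the kinase that activates ERK. Active ERK turns on a first wave of transcription factors such as FOS and EGR1, and ERK that stays active through G1 is known to be needed for cyclin D1, for release of E2F from RB and for entry into S phase. U0126 inhibits MEK1 and MEK2 and so withdraws ERK activity. Its addition at 1 h would leave the first wave in place and remove the later ERK signal. ERK activity itself is not measured by these arrays. ERK also raises its own brakes, the DUSP phosphatases and Sprouty proteins, whose transcripts are widely used as a readout of the pathway.

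The values are MAS5 signal intensities, which have no meaning between different probe sets. The median signal of the late U0126 array was 65.3, within the range of 60.2 to 88.3 over all arrays, and its Gapdh 3'/5' ratio of 0.736 lay within 0.698 to 0.8. Of 13 fibroblast markers 12 were tested, and all 12 lay above the median of all values on the late U0126 array, with Col1a2 at 26919, Fn1 at 24780 and Vim at 19795. The platelet-derived growth factor receptor gene Pdgfra, 1 of these 12, was lower with late U0126 than with FGF 7 h. Endothelial and muscle markers had 0 of 6 tested members each above that median. Above it were 5 of 8 tested macrophage, 2 of 8 epithelial and 1 of 3 adipocyte markers. In each of these lists 1 bright probe set gave most of the summed signal. The 8 macrophage markers tested summed to 1334 with late U0126, against 1783 and 1878 with FGF 7 h, and 0 of them passed. Cd14, a lipopolysaccharide co-receptor, gave 752.4 of this against 1114.6 and 1062.2 (adjusted p = 0.15). Csf1r gave 106.4 against 233.0 and 250.1. The others above the median were Lyz2 (209.0 against 198.4 and 214.4), Spi1 (93.2 against 61.8 and 100.9) and Cd68 (80.0 against 46.0 and 61.2). The 8 epithelial markers summed to 1863 against 1091 and 1312, and Krt14, a keratin, gave 1500.3 of this and was higher with late U0126 (1.00 ± 0.21, adjusted p = 0.012, and 0.062 without FGF 7 h replicate 1). The 3 adipocyte markers tested summed to 23988 against 8633 and 8850, nearly all of it Lpl, lipoprotein lipase, which was higher (1.46 ± 0.20, adjusted p = 0.00063), while Adipoq, Fabp4 and Pparg were at 23.7, 4.1 and 6.9. The part of these shifts in the results was not tested. The labels do not say whether arrays of 1 state came from separate cultures, so p-values measure the spread between these samples, and the single late U0126 array is assumed to vary like the groups that have more than 1.

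With U0126 present from 1 h, 15 of 27 ERK feedback and target genes, 24 of 51 DNA replication genes and the chemokines Ccl2 and Ccl7 were lower at 7 h than with FGF alone. The orphan receptors Nr4a1 and Nr4a3, 16 of 31 amino acid and ATF4 genes and 5 of 13 NRF2 and metallothionein genes were higher. By limma, 539 of 14996 genes passed an adjusted p of 0.05 (3.59%), of which 252 were higher (1.68%) and 287 lower (1.91%) with late U0126. With the experiment number as a block, 1123 genes passed (7.49%), 524 higher (3.49%) and 599 lower (3.99%). Without FGF 7 h replicate 2, 294 passed. Scaling each array to its 75th percentile turned the split to 298 higher and 249 lower, so which direction had more calls depends on the scaling. The median difference over all genes was -0.03 on the log2 scale. All differences below are log2 differences of signal plus an offset of 13.6, which understates changes of dim genes. In bulk RNA, fewer cells of a kind and less RNA per cell cannot be told apart.

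**Figure D1:**
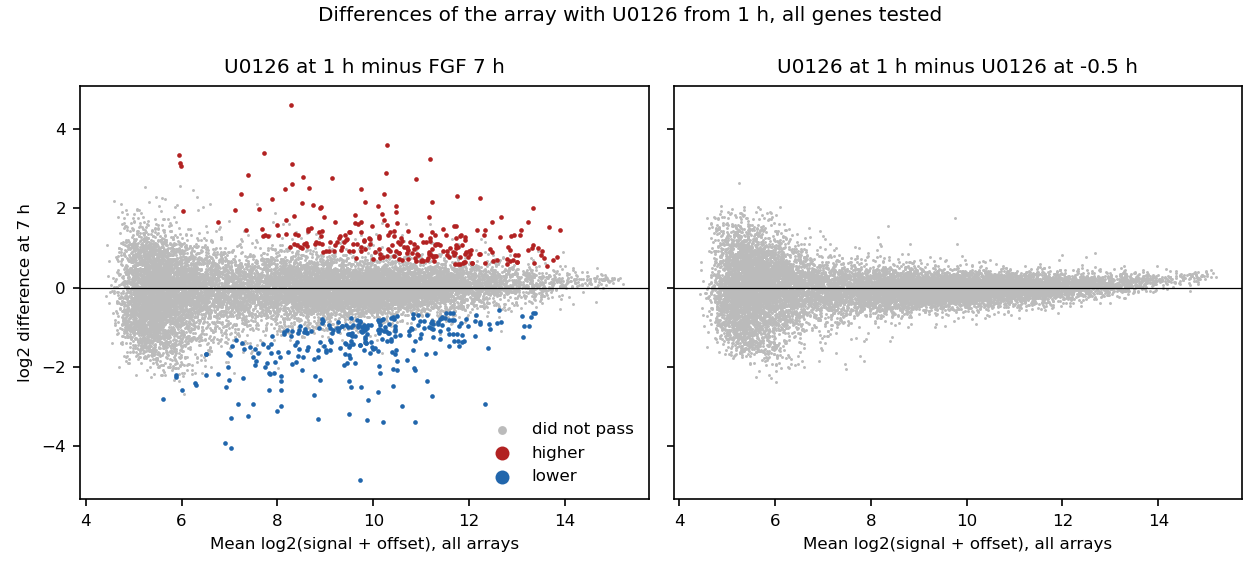
Log2 difference of the late U0126 array from FGF 7 h (left) and from early U0126 (right) against the mean log2 signal over all arrays, 1 point per gene for 14996 genes. Against FGF 7 h, 252 genes were higher (red) and 287 lower (blue). Against early U0126, 0 genes passed, and the wide differences lie at low signal.

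The phosphatase gene Dusp6, which encodes the cytoplasmic phosphatase that removes phosphate from ERK, had a signal of 1111 with late U0126, against 7396 and 7422 with FGF 7 h. Both FGF arrays were far above the late U0126 array, which was 6.6-fold lower (-2.72 ± 0.20 SE, adjusted p = 3.9e-06). The same gene stood at 5826 at FGF 1 h, when the inhibitor went in, and at 907 to 1560 in quiescent cells. Late U0126 thus lay inside the range of the 3 quiescent arrays and 2.38 ± 0.23 below FGF 1 h (adjusted p = 0.00011).

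Of 27 ERK feedback and target genes tested, 15 fell and 0 rose relative to FGF 7 h, with a median of -1.09. Etv5, an ETS transcription factor downstream of FGF receptors, had 162 with late U0126, against 1859 and 1630 with FGF 7 h (-3.32 ± 0.26, adjusted p = 5.6e-06). Its late U0126 value was also below all 3 quiescent arrays, which held 414 to 545 (-1.55 ± 0.26 against quiescent, adjusted p = 0.002). Dusp4, the nuclear ERK phosphatase, fell by 2.57 on the log2 scale, and Errfi1, which encodes an inhibitor of the EGF receptor, fell by 2.07. Spry4, a Sprouty gene, gave -0.61 (adjusted p = 0.62) at low signal.

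Ligands of the EGF receptor were among the lowered genes. The epiregulin gene Ereg had 953 with late U0126, against 8251 and 7153 with FGF 7 h (-2.99 ± 0.22, adjusted p = 3.9e-06). Of 9 genes tested on the list of EGF family ligands and receptors, 3 fell and 0 rose. The others were the receptor inhibitor gene Errfi1 and Btc, which encodes betacellulin. Ereg and Errfi1 are also on the ERK feedback and target list, so these counts are not separate. The late U0126 signal of Btc, 28.1, was not shown above background, here taken as the 40th percentile of all values, 45.2, so the size of its change depends on the offset. Hbegf, which encodes heparin-binding EGF-like growth factor, gave -0.81 against FGF 7 h (adjusted p = 0.15) and stood 1.76 ± 0.28 above quiescent (adjusted p = 0.0013).

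Fosl1 and Plaur lay between quiescent cells and FGF 7 h. Fosl1, which encodes the AP-1 subunit FRA1, had 1299 with late U0126, against 3935 and 2855 with FGF 7 h and 276.3 to 391.9 in quiescent cells. It was lower than FGF 7 h by -1.36 ± 0.28 (adjusted p = 0.012) and higher than quiescent by 1.98 ± 0.28 (adjusted p = 0.00059). Without FGF 7 h replicate 1 the difference from FGF 7 h was -1.13 with an adjusted p of 0.061. Plaur, the urokinase receptor, had 901 with late U0126, against 1938 and 1972 with FGF 7 h and 263 to 308 in quiescent cells, so it too lay between both states on every array (-1.11 ± 0.17, adjusted p = 0.0017, and 1.61 ± 0.17 above quiescent, adjusted p = 0.0001). At FGF 1 h Plaur was at 393, which late U0126 exceeded by 1.17 ± 0.20 (adjusted p = 0.0042), whereas Fosl1 was at 3027 and late U0126 lay below it (-1.21 ± 0.32, adjusted p = 0.049, and 0.15 without a variance trend). With early U0126 Plaur had 1075 and 964, and the difference of late from early U0126 was -0.17 (95% interval -0.54 to 0.19).

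Among 28 immediate-early genes tested, those induced within the first hour of a growth stimulus, 6 rose and 4 fell relative to FGF 7 h. Egr3, a zinc finger factor, had 158 with late U0126, against 908 and 793 with FGF 7 h (-2.33 ± 0.23, adjusted p = 5e-05). Egr1 had 296 against 1430.0 and 2108 (-2.50 ± 0.36, adjusted p = 0.00084). Both arrays with FGF alone exceeded the late U0126 array for these genes. Fos itself had 51.8 against 106 and 97.0 and did not pass (-0.81, adjusted p = 0.54), all 3 values being low beside the 1842 of FGF 1 h. Myc, which drives growth and ribosome synthesis, had 2801 with late U0126, against 4259 and 4203 with FGF 7 h (-0.59, adjusted p = 0.13).

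**Figure D2:**
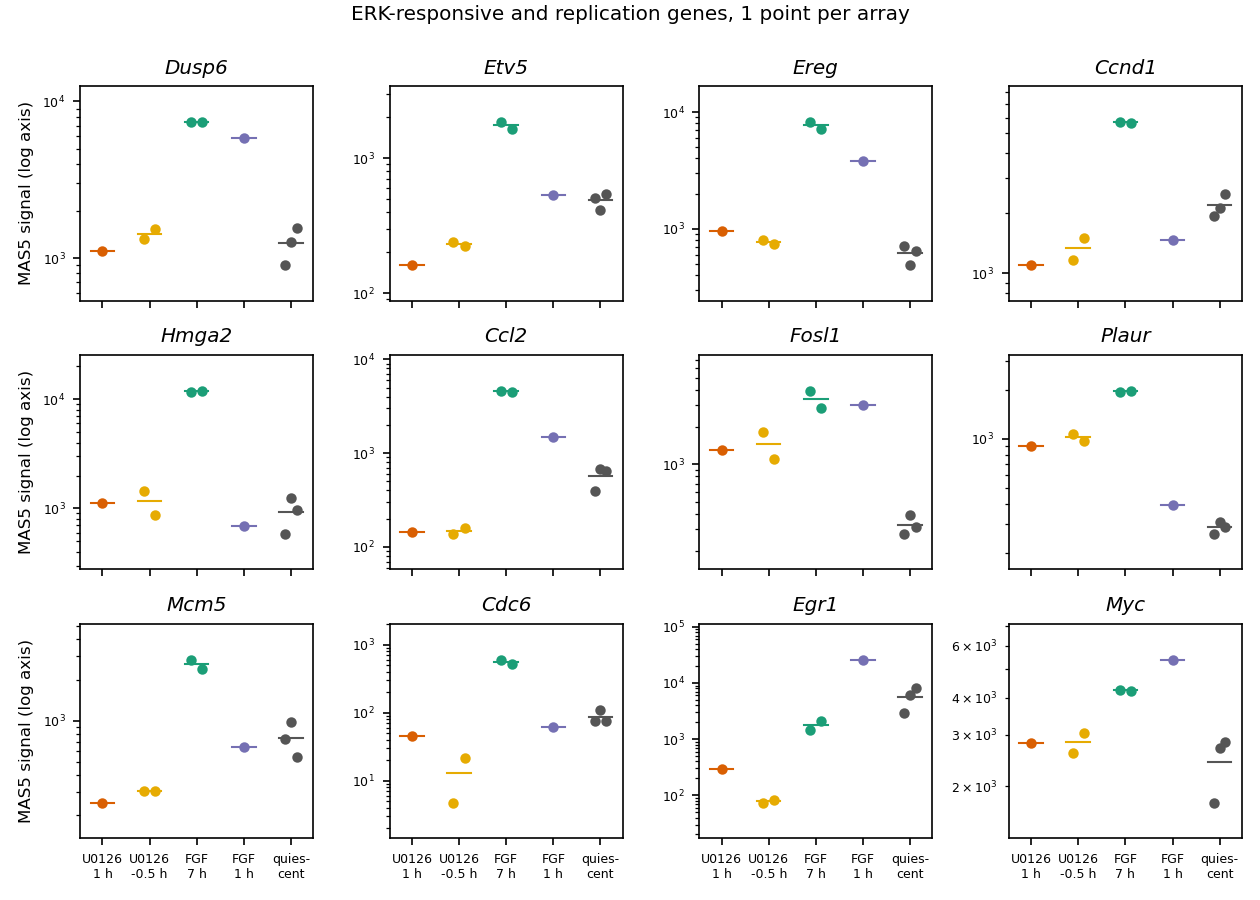
MAS5 signal (log axis) of 12 genes on each array with late U0126, early U0126, FGF 7 h, FGF 1 h and in quiescent cells, 1 point per array and the group mean as a bar. For Dusp6 the late U0126 array is at 1111, against 7396 and 7422 with FGF 7 h. For Fosl1 and Plaur it lies between quiescent and FGF 7 h.

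The NR4A orphan receptors and other early genes moved the other way. Nr4a3 had 822 with late U0126, against 37.8 and 9.0 with FGF 7 h, which is the largest rise among the named genes (4.62 ± 0.63, adjusted p = 0.00063). Its FGF 7 h signals were not shown above background, so the size of the rise depends on the offset. Nr4a1 had 1312 against 312.5 and 392.2 (1.87 ± 0.38, adjusted p = 0.011). Both receptors had been far higher at FGF 1 h, at 3685 for Nr4a3 and 17925 for Nr4a1. Atf3, a stress-induced repressor of the ATF family, had 660 with late U0126, against 66.1 and 60.7 with FGF 7 h (3.13 ± 0.28, adjusted p = 1.9e-05), close to the 619 of FGF 1 h. Npas4, a neuronal immediate-early factor, rose by 3.15 ± 0.56 over FGF 7 h signals under background.

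Of 11 AP-1 subunits 1 rose and 1 fell. The riser was Jund, with 6669 with late U0126 against 1249 and 1520 with FGF 7 h (2.26 ± 0.33, adjusted p = 0.001), and the other was Fosl1. JunD is the AP-1 subunit commonly linked to growth arrest of fibroblasts. The signal of Jund in quiescent cells was 5349 to 11190, a range that holds the late U0126 value.

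The Ccl2 gene had the largest fall. This chemokine of monocytes had 143 with late U0126, against 4640.1 and 4465 with FGF 7 h, which is 29.1-fold lower (-4.86 ± 0.35, adjusted p = 3.9e-06). It also lay below all 3 quiescent arrays, which had 399 to 671 (-1.92 ± 0.35, adjusted p = 0.0034). Ccl7, a related chemokine, had 287 against 3121 and 3100 (-3.38 ± 0.39, adjusted p = 0.00016). Tslp, a cytokine of the interleukin-7 family, had 42.3 against 874 and 802 (-3.93 ± 0.37), with a late U0126 signal under background. Of 16 chemokines and cytokines tested, 5 fell and 0 rose, with a median of -0.63. Cxcl1 and Csf1 completed the 5 at -1.97 and -0.76, and without FGF 7 h replicate 2 Cxcl1 no longer passed (-1.73, adjusted p = 0.075).

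The D-type cyclin gene Ccnd1, which couples growth factor signals to CDK4 and CDK6, had 1104 with late U0126, against 5715 and 5664 with FGF 7 h. It was 5.1-fold lower (-2.35 ± 0.20, adjusted p = 1.2e-05). It also lay below every quiescent array, which had 1940 to 2502 (-1.02 ± 0.20, adjusted p = 0.0053), although without quiescent replicate 2 this was -0.87 with an adjusted p of 0.05. At FGF 1 h its signal was 1461. Of 11 cyclins, CDKs and Cdc25a of G1, 2 fell, the other being Ccne2 (-2.19 ± 0.40, adjusted p = 0.0056). With the block 5 fell, among them Ccne1, which encodes cyclin E1 (-1.33 and adjusted p = 0.067 without the block, -1.43 and adjusted p = 0.012 with it) and Cdk6 (-1.09 with adjusted p = 0.055, -0.90 with adjusted p = 0.0012).

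Genes of DNA replication formed the largest lowered group. Of 51 G1/S and replication genes tested, 24 fell and 0 rose relative to FGF 7 h, with a median of -1.13, and 34 fell with the block. Mcm5, a subunit of the MCM helicase that opens replication origins, had 249 with late U0126, against 2832 and 2430 with FGF 7 h (-3.33 ± 0.33, adjusted p = 5e-05). Cdc6, which loads that helicase, had 45.8 against 603 and 524 (-3.28 ± 0.54, adjusted p = 0.0024). Mcm6, another MCM subunit, fell by 2.84, Uhrf1, which keeps DNA methylation through replication, by 2.99, and Dscc1, of the clamp loader, by 2.94 with a late signal under background. Cdt1, the partner of Cdc6, had 1617 against 5428 and 4872 (-1.66 ± 0.18). Pcna, the replication clamp, had 10181 against 14210.0 and 14206 and passed with the block alone (-0.48 with adjusted p = 0.25, -0.56 with adjusted p = 0.035).

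Timeless, of the replication fork protection complex and not on that list, had 5.5 with late U0126 against 256 and 362 with FGF 7 h (-4.06 ± 0.68, adjusted p = 0.0026), a late signal under background. In quiescent cells it had 155 to 174. Of the 51 replication genes 9 were also lower than in quiescent cells and 1 was higher, among the lower Mcm5 (-1.39 ± 0.33, adjusted p = 0.019), E2f7 (-1.74 ± 0.27, adjusted p = 0.0013) and Dscc1. Mcm5 did not pass there without a variance trend (adjusted p = 0.09). Under quantile normalization 5 of the 51 were lower than in quiescent cells. The 38 genes of G2 and mitosis had a median of -0.49 against FGF 7 h, with 1 fall, Cks2 (-0.93 ± 0.22, adjusted p = 0.025), and 10 falls with the block. Without either FGF 7 h replicate Cks2 did not pass, with an adjusted p of 0.067 or 0.089.

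Promoter sequences are shown for the 3 replication genes that fell most among list members called lower with an E2F motif. Their shared fall and motif follow from that choice. Each runs 5′ to 3′ on the strand of the gene, from 250 bases before the start of the transcript to 50 after it (RefSeq, GRCm38.p6), and capitals mark TTTCCCGC or TTTGGCGC read on either strand. The windows are Mcm5 (chr8:75109259-75109558, plus strand), Cdc6 (chr11:98907901-98908200, plus strand) and Mcm6 (chr1:128359656-128359955, minus strand).
Mcm5: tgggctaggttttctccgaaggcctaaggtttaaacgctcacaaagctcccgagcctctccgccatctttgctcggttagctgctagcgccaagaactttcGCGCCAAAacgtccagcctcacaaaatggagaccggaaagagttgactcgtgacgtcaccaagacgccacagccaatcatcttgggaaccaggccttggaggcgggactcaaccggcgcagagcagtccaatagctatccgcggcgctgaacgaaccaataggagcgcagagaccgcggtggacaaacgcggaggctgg
Cdc6: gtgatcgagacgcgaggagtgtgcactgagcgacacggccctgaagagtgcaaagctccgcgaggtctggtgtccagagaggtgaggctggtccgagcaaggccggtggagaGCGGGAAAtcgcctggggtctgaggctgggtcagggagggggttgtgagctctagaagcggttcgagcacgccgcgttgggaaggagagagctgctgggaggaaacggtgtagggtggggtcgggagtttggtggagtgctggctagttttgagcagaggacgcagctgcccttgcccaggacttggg
Mcm6: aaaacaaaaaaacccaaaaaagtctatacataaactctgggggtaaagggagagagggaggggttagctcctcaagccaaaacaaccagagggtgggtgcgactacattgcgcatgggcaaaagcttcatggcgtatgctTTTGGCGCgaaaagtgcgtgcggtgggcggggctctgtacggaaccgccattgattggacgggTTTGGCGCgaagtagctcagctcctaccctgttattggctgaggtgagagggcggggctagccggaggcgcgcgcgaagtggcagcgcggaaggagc
Of 51 windows of the replication list, 15 held an E2F motif (29.4%), against 391 of 15266 windows over all genes tested (2.56%) and 24 of 308 windows of the genes lower with late U0126 (7.79%). The share of the replication list depends on how its members were chosen, not on the expression differences. The genes lower with late U0126 include the called members of this list, so their share is not separate from it. A match describes these letters only, and the windows covered 12040 of the 14996 genes.

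Transcripts of amino acid supply and of the ATF4 stress program were raised. Of 31 such genes tested, 16 rose and 0 fell relative to FGF 7 h, with a median of 0.69, and with the block 22 rose. Ddit3, which encodes the transcription factor CHOP, had 7752 with late U0126, against 834 and 784 with FGF 7 h (3.24 ± 0.23, adjusted p = 3.9e-06). Trib3, a pseudokinase induced by CHOP and ATF4, had 3584 against 438 and 504 (2.90 ± 0.33, adjusted p = 0.00014). The late U0126 array stood several times above both FGF arrays for each, and above FGF 1 h and quiescent cells too. Chac1, which degrades glutathione, had 2558 against 492 and 751 (2.05 ± 0.36, adjusted p = 0.0037, and 0.053 without a variance trend). Atf4 itself, which is also set by translation, rose less, with 16785 against 9979 and 10029 (0.75 ± 0.16, adjusted p = 0.017).

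Enzymes and transporters of the list rose as well. Mthfd2, of mitochondrial folate metabolism, had 4399 with late U0126, against 1731 and 1759 with FGF 7 h (1.33 ± 0.28, adjusted p = 0.014). Slc7a11, the cystine transporter, had 973 against 387 and 287 (1.51 ± 0.29, adjusted p = 0.0079), but without FGF 7 h replicate 2 this was 1.30 with an adjusted p of 0.059. Cth, which makes cysteine from cystathionine, passed with the block alone (1.35 with adjusted p = 0.063, 1.61 with adjusted p = 3e-05).

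For the amino acid list the 3 members that rose most among those with a CARE motif (TGATGNAA, the C/EBP-ATF response element bound by ATF4) are shown, with either strand of the motif in capitals. The windows, from RefSeq as above, are Trib3 (chr2:152344011-152344310, minus strand), Chac1 (chr2:119350992-119351291, plus strand) and Slc7a11 (chr3:50443564-50443863, minus strand).
Trib3: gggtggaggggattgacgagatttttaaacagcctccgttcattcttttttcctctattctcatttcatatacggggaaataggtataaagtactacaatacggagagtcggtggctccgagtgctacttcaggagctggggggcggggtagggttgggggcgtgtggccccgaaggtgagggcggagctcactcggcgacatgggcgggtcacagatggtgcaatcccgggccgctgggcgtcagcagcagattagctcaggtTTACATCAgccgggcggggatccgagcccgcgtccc
Chac1: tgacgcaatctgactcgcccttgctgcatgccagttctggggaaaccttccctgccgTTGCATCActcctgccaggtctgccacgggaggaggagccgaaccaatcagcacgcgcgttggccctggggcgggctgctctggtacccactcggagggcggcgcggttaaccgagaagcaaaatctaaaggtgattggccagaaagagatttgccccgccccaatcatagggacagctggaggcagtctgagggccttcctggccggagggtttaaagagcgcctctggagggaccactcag
Slc7a11: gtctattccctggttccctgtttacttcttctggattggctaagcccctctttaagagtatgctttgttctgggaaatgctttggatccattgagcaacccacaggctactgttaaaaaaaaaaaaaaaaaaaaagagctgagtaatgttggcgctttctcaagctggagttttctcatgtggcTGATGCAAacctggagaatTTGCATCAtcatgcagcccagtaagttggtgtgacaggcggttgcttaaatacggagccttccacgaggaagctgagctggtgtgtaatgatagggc
A CARE motif was found in 8 of 30 windows of the list (26.7%), against 386 of 15266 windows over all genes tested (2.53%) and 20 of 282 windows of the genes higher with late U0126 (7.09%). Of the 31 genes tested, 26 had a window. The list was drawn up to hold ATF4 targets, so its high share reflects that choice and is not a result of these arrays. The genes higher with late U0126 include the called members of this list, so their share is not separate from it.

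Chaperones of the endoplasmic reticulum rose in part. Of 18 heat shock and ER chaperone genes, 5 rose and 0 fell, with a median of 0.43, and under quantile normalization 3 rose. Herpud1, which serves the degradation of ER proteins, had 13835 with late U0126, against 4225 and 3781 with FGF 7 h (1.79 ± 0.20, adjusted p = 0.00012). Sdf2l1, an ER-resident cofactor, had 7847 against 3449 and 3094 (1.26 ± 0.20, adjusted p = 0.0018). Dnajb9 and Dnajc3, ER co-chaperones, gave 1.41 and 0.63, and without FGF 7 h replicate 2 these were 1.00 and 0.51 with adjusted p of 0.14 and 0.27. Hspa5, the main ER chaperone BiP, had 38053 against 27351 and 26897 and did not pass (0.49, adjusted p = 0.23).

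Antioxidant genes were higher in the same array. Of 13 NRF2 targets and metallothioneins, 5 rose and 0 fell, with a median of 0.47. Among the 5 was Slc7a11, which is also on the amino acid and ATF4 list. Hmox1, heme oxygenase, had 22028 with late U0126, against 6656 and 4424 with FGF 7 h (2.02 ± 0.28, adjusted p = 0.00068). Gsta4, a glutathione transferase, rose by 1.66 ± 0.27 (adjusted p = 0.0021). Srxn1, which restores peroxiredoxins, had 6531 against 2752 and 2921 (adjusted p = 0.0032), but did not pass with its probe set of highest variance (1.27, adjusted p = 0.096).

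**Figure D3:**
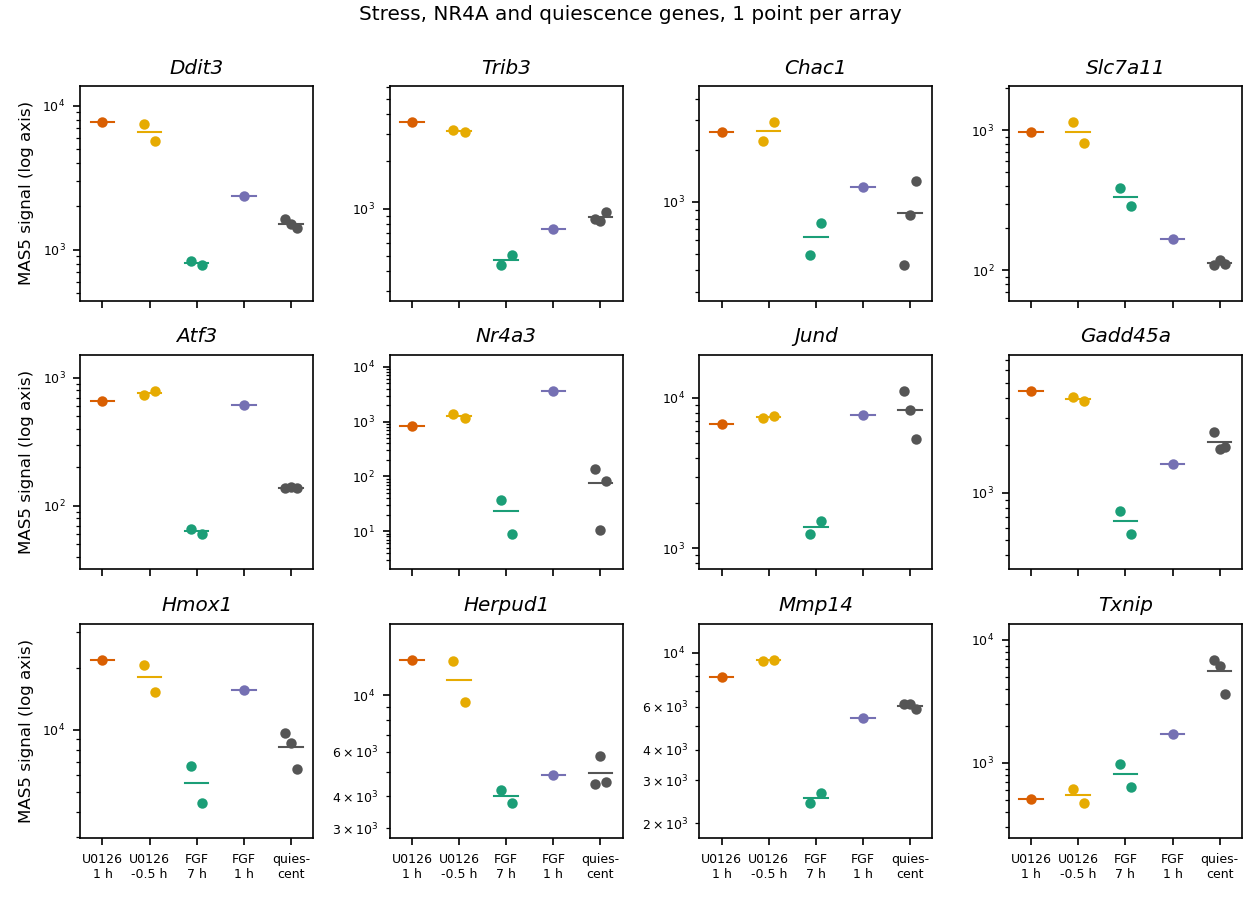
MAS5 signal (log axis) of 12 genes on each array with late U0126, early U0126, FGF 7 h, FGF 1 h and in quiescent cells, 1 point per array and the group mean as a bar. Ddit3 stands at 7752 with late U0126, against 834 and 784 with FGF 7 h. Txnip is at 508 with late U0126, against 3612 to 6941 in quiescent cells.

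Of 43 antiproliferative genes, a list that may hold genes the study chose on these arrays, 8 rose and 0 fell, with a median of 0.08, and 12 rose and 2 fell with the block. Gadd45a, a growth arrest and DNA damage gene, had 4442 with late U0126, against 769 and 550 with FGF 7 h (2.75 ± 0.23, adjusted p = 9.7e-06). Trp53inp1, a p53-induced gene, rose by 1.42 ± 0.19 (adjusted p = 0.00063), Klf9 by 1.28 ± 0.20 (adjusted p = 0.0016), Ndrg1 by 1.45 ± 0.23 (adjusted p = 0.0018) and Plk2 by 1.32 ± 0.19 (adjusted p = 0.00095). With the probe set of highest variance, Klf9 and Ndrg1 gave 1.16 and 1.09 and did not pass (adjusted p = 0.22 and 0.24). Cdkn1a, the CDK inhibitor p21, had 6704 against 3083 and 4590.1 and passed with the block alone (0.83 with adjusted p = 0.22, 1.06 with adjusted p = 9.8e-05), as did Tob1, an antiproliferative adaptor (0.94 with adjusted p = 0.15, 0.72 with adjusted p = 0.007). Cdkn1b, which encodes p27, gave 0.63 (adjusted p = 0.45) and Ccng2 gave -0.27 (adjusted p = 0.76).

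Outside these lists the largest changes took in genes of varied roles. Among those raised were Car6, a secreted carbonic anhydrase (3.61 ± 0.49), Fibin, a secreted protein (3.41 ± 0.33), Rgcc, a regulator of the cell cycle (2.84 ± 0.47), Paqr3, a Golgi protein that retains RAF (2.78 ± 0.32), and the transcription factor genes Mef2c (2.78 ± 0.30) and Sox6 (2.61 ± 0.31). Mef2c had 1581 with late U0126, against 214 and 225 with FGF 7 h and 209 to 394 in quiescent cells. Cavin4 and Rtl3, at 3.36 and 3.07, had FGF 7 h signals under background, and Rtl3 did not pass without either FGF 7 h replicate (adjusted p = 0.11 and 0.075).

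Among those lowered, the chromatin protein gene Hmga2, high in embryonic and transformed cells, had 1115 with late U0126, against 11638 and 11973 with FGF 7 h (-3.39 ± 0.38, adjusted p = 0.00012). Sema7a, a membrane-anchored semaphorin, fell by 3.23, Pdzd2 by 3.20 and Gpr149, an orphan receptor, by 3.12. For Pdzd2 the late U0126 value of 221 was also under the 1039 to 1236 of quiescent cells (-2.30 ± 0.23, adjusted p = 6.5e-05), whereas Gpr149 had 140 against 108 to 187.

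In growth factor receptors, 5 of 21 tested fell and 1 rose. Pdgfra had 2545 with late U0126, against 7469 and 7121 with FGF 7 h and 9571 to 11721 in quiescent cells, the lowest of these groups (-1.51 ± 0.21 against FGF 7 h, adjusted p = 0.00078, and -2.03 ± 0.21 against quiescent, adjusted p = 7.8e-05). The other falls were Epha2, an ephrin receptor (-1.50), Axl (-0.88), Met, the receptor of hepatocyte growth factor (-0.81), and Tgfbr3, a TGF-beta co-receptor (-0.87), the last 2 named after their values were seen. Epha2 and Axl, and Irs1 of the IGF list, the adaptor of insulin receptors (-1.34), did not pass without FGF 7 h replicate 2 (adjusted p = 0.076, 0.23 and 0.076). Lpar4, a receptor for lysophosphatidic acid, rose by 2.48 ± 0.29 (adjusted p = 0.00016). Of 23 actin and SRF targets 4 fell, led by Ccn2, connective tissue growth factor, which had 361 against 2105 and 2575 (-2.64 ± 0.34, adjusted p = 0.00039). Filip1l, an actin-associated protein, fell by 1.19 ± 0.20, and Actn1 and Ankrd1 gave -1.23 and -0.98 but did not pass without FGF 7 h replicate 2 (adjusted p = 0.13 and 0.075).

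Matrix proteases split. Of 17 proteases, inhibitors and urokinase genes, 2 rose and 3 fell. Mmp14, the membrane-type collagenase, had 7974 with late U0126, against 2428 and 2659 with FGF 7 h (1.65 ± 0.18, adjusted p = 0.0001), and Mmp11 rose by 1.78 ± 0.31 (adjusted p = 0.0039). Timp1, an inhibitor of these enzymes, fell by 0.86 ± 0.17 (adjusted p = 0.011). The third fall beside Plaur, Plat, depended on the probe set, with -1.18 for the brightest and 0.55 for the most variable.

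Several growth programs had few or no calls against FGF 7 h, where 3.59% of all genes passed. Counts of 0 or 1 in lists of this size are near that share and do not set these programs apart. Of 47 ribosome biogenesis genes 0 passed in either direction against FGF 7 h, with a median of -0.06 and a range of -0.59 to 0.44. Of 24 cholesterol genes 1 passed, Dhcr7, the last enzyme of cholesterol synthesis (-1.36 ± 0.30, adjusted p = 0.021), and it did not pass without either FGF 7 h replicate (adjusted p = 0.065 each). Of 17 glycolysis genes 1 passed, Hk2, hexokinase 2 (0.88 ± 0.22, adjusted p = 0.042), which did not pass under quantile normalization (adjusted p = 0.056) or without either FGF 7 h replicate (adjusted p = 0.071 and 0.18). Of 34 extracellular matrix genes 0 passed, with a median of 0.05. Polyamine genes had 0 of 8 calls, and Odc1, the rate-limiting enzyme, passed with the block alone (-0.43 with adjusted p = 0.23, -0.52 with adjusted p = 0.0095).

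The comparison with quiescent cells asks what differed from quiescence at 7 h of FGF when U0126 was present from 1 h. In that comparison 1205 genes passed (8.04%), 485 higher (3.23%) and 720 lower (4.8%), and with the block 2289 (15.3%), 948 higher (6.32%) and 1341 lower (8.94%). Scaling each array to its 75th percentile turned the split to 731 higher and 498 lower. Without quiescent replicate 2, 523 genes passed. No array without FGF was taken at 7 h, and none had U0126 without FGF. Time in culture, FGF and U0126 itself therefore cannot be told apart in this comparison.

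Ribosome biogenesis genes were among those raised. Of 47 genes tested 30 were higher than in quiescent cells and 0 lower, with a median of 0.78, against -0.08 over all genes. Dkc1, the pseudouridine synthase of small nucleolar particles, had 2456 with late U0126, against 471 to 907 in quiescent cells (2.07 ± 0.38, adjusted p = 0.0037), though its probe set of highest variance gave 0.83 (adjusted p = 0.098). Nop56, a core protein of those particles, had 6087 against 2107 to 2413 (1.44 ± 0.24, adjusted p = 0.0017), and Rrp12, which exports ribosomal subunits, had 690 against 249 to 262 (1.40 ± 0.21, adjusted p = 0.0012). For all 3 the late U0126 array exceeded every quiescent array. Npm1, the nucleolar protein nucleophosmin, had 24478 against 18199 to 23536 and did not pass (0.24, adjusted p = 0.47). With quantile normalization or 75th percentile scaling 29 or 32 of the 47 rose.

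Polyamine and sterol genes were raised too. Of 8 polyamine genes 4 were higher and 0 lower, with Srm, spermidine synthase, at 6337 with late U0126 against 2131 to 2630 in quiescent cells (1.36 ± 0.16, adjusted p = 0.0002) and Odc1 at 3860 against 1728 to 2006 (1.07 ± 0.17, adjusted p = 0.0015). Of 24 cholesterol genes 10 were higher and 0 lower, with a median of 0.52, among them Idi1, isopentenyl diphosphate isomerase (1.07 ± 0.20, adjusted p = 0.0043, and 0.074 with its probe set of highest variance). Of 31 amino acid and ATF4 genes 19 were higher and 0 lower, with a median of 0.88, led by Slc7a11 at 973 against 110 to 119 (2.96 ± 0.29, adjusted p = 6.5e-05). Of 18 heat shock and ER chaperone genes 11 were higher and 0 lower, with Sdf2l1 at 7847 against 1404 to 1722 (2.25 ± 0.20, adjusted p = 4.9e-05). Ptgs2, cyclooxygenase 2, had 15157 against 1681 to 2466 (2.83 ± 0.27, adjusted p = 6.5e-05), and Hk2 stood 1.98 ± 0.22 higher (adjusted p = 0.00016).

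Genes of quiescence were lower. Of 25 FOXO targets 13 were lower and 0 higher, with a median of -0.90, and with 75th percentile scaling 10 were lower and 1 higher. Txnip, which limits glucose uptake, had 508 with late U0126, against 3612 to 6941 in quiescent cells (-3.22 ± 0.58, adjusted p = 0.0033). Ccng2, cyclin G2, had 484 against 2471 to 3131 (-2.48 ± 0.30, adjusted p = 0.00021), and Pik3ip1, an inhibitor of PI3 kinase, had 459 against 1785 to 3190 (-2.24 ± 0.26, adjusted p = 0.00018). On each of these genes the late U0126 array was below every quiescent array. Of 18 circadian genes 6 were lower and 2 higher. Dbp, a clock output factor, had 188 against 1430 to 2486 (-3.13 ± 0.37, adjusted p = 0.00019), and Nfil3, which opposes Dbp at shared sites, had 2004 against 349 to 422 (2.33 ± 0.29, adjusted p = 0.0003). In interferon genes 4 of 17 were lower, led by Gbp2 at 198 against 848 to 920 (-2.08 ± 0.26, adjusted p = 0.00031).

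Of the 27 ERK targets 4 were higher than in quiescent cells and 3 lower, with a median of -0.06. The higher ones included Fosl1, Plaur and Hbegf, and the lower ones were Egr1, Etv5 and Ccnd1. Egr1 was the furthest, at 296 with late U0126 against 2889 to 8039 in quiescent cells (-4.24 ± 0.36, adjusted p = 4.9e-05). Its FGF 7 h signals, given above, were also below every quiescent array, so part of this distance is present without U0126. Of the 43 antiproliferative genes 3 were higher and 14 lower than in quiescent cells.

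**Figure D4:**
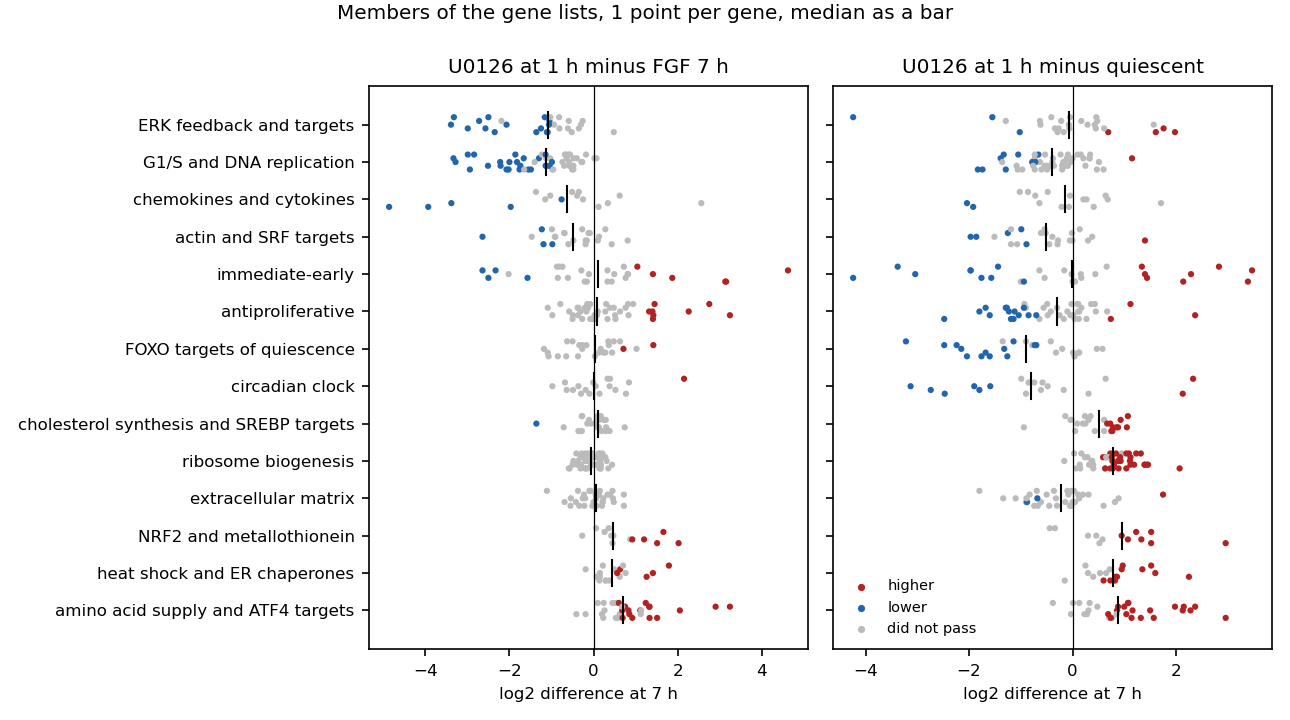
Log2 difference of the late U0126 array from FGF 7 h (left) and from quiescent cells (right) for each member of 14 gene lists, 1 point per gene, with the list median as a bar. The 51 replication genes have a median of -1.13 against FGF 7 h, and the 47 ribosome biogenesis genes a median of 0.78 against quiescent cells and -0.06 against FGF 7 h.

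The difference from FGF 1 h covers the 6 h that followed the addition of U0126, with 1 array on each side and the spread taken from the other groups. Here 599 genes passed (3.99%), 281 higher (1.87%) and 318 lower (2.12%), 1858 with the block (12.4%, with 6.02% higher and 6.37% lower), and 75th percentile scaling gave 376 higher and 265 lower. Immediate-early genes were lower than at the addition. Of 28 immediate-early genes 17 were lower and 0 higher, with a median of -2.10, against -0.12 over all genes. Egr2 had 70.9 with late U0126, against 8724 at FGF 1 h (-6.69 ± 0.61, adjusted p = 0.0001), Egr1 had 296 against 26182 (-6.40 ± 0.41, adjusted p = 1.6e-06) and Fos had 51.8 against 1842 (-4.83 ± 0.61, adjusted p = 0.00066). Nr4a1 was lower as well, by -3.76 ± 0.43, though above FGF 7 h.

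Ribosome biogenesis genes and genes of amino acid supply and the ATF4 stress program gained over the same hours. Of 47 ribosome biogenesis genes 13 were higher than at FGF 1 h and 0 lower, and 25 were higher with the block. Of 31 amino acid and ATF4 genes 17 were higher and 0 lower, with Trib3 at 3584 with late U0126 against 737 at FGF 1 h (2.26 ± 0.38, adjusted p = 0.0035). Of 51 replication genes 1 was higher and 0 lower than at FGF 1 h, near the 1.87% of all genes that were higher. Of 18 circadian genes 8 were lower and 0 higher, with a median of -1.61.

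The comparison with early U0126 asks what the first hour of MEK activity left behind at 7 h. By limma 0 of 14996 genes passed an adjusted p of 0.05 (0%), and 437 had an unadjusted p under 0.05 (161 higher and 276 lower), which is 2.91% of the genes. The smallest adjusted p was 0.23. The design bounds this result: the 95% interval of the difference had a median half-width of 0.68, and it lay within 1 log2 unit of 0 for 8030 genes (53.5%), so smaller differences, or larger ones in the remaining genes, could not be shown. The median absolute difference was 0.21 for late U0126 minus the mean of the 2 early arrays. The 2 early U0126 arrays, of experiments 1 and 2, differed from each other by a median of 0.26. The median was 0.32 for late U0126 minus the mean of FGF 7 h, and also 0.32 between the 2 FGF 7 h arrays. A difference from a mean of 2 arrays and one between single arrays of different experiments are not like measures. Against the early U0126 array of experiment 1 alone the median was 0.17, and against FGF 7 h of experiment 1 it was 0.30.

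Some of the named genes are given with their intervals. Dusp6 had 1111 with late U0126, against 1317 and 1529 with early U0126 (-0.35, 95% interval -0.77 to 0.07). Ccnd1 had 1104 against 1172 and 1504 (-0.26, -0.69 to 0.16), and Ereg 953 against 795 and 735 (0.31, -0.16 to 0.79). Late U0126 was beyond both early arrays for these genes, by little beside their distance from FGF 7 h. Mcm5 had 249 against 304 and 302 (-0.27, -0.98 to 0.44), Ddit3 had 7752 against 7504 and 5706 (0.24, -0.24 to 0.73) and Ccl2 had 143 against 139 and 158 (-0.04, -0.78 to 0.70). Fosl1, with 1299 against 1815 and 1103, lay between both early arrays (-0.12, -0.72 to 0.47). Among the fixed genes the intervals of Cdc6 (1.23, 0.08 to 2.38), Ccng2 (-0.74, -1.38 to -0.09) and Egr1, given below, excluded 0. The mean early U0126 signal of Cdc6, 13.1, was under background. Dusp4 gave -0.84 (-1.79 to 0.12).

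With the experiment as a block 4 genes passed (0.0267%), 3 higher (0.02%) and 1 lower (0.00667%). Egr1 had 296 with late U0126, against 73.9 and 81.3 with early U0126 (1.76 ± 0.36, 95% interval 1.00 to 2.53, adjusted p = 0.62 without and 0.016 with the block). Mgp, matrix Gla protein, had 345 against 108 and 111 (1.55 ± 0.24, adjusted p = 0.23 and 0.032). Timp1 had 6417 against 3432 and 3615 (0.86 ± 0.17, adjusted p = 0.62 and 0.044). All 3 stood between early U0126 and FGF 7 h, where Egr1 had 1430.0 and 2108, Mgp 970 and 959, and Timp1 10499 and 12860. Denn2b, a RAB exchange factor gene, had 15.8 against 80.2 and 146 (-2.06 ± 0.35, adjusted p = 0.23 and 0.044), a late U0126 signal under background. Nr4a1, which the naming rule did not give for this comparison, was lower than with early U0126, at 1312 against 2085 and 2944. Its unadjusted p by limma was 0.029 (adjusted p = 1). It too stood between early U0126 and FGF 7 h, where its mean was 352.

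Gene sets chosen on arrays outside each comparison were counted as well. Of 480 genes called higher with U0126 at 4 h (added at -0.5 h, 2 arrays against 2 FGF 4 h arrays), 189 were higher and 0 lower in late U0126 against FGF 7 h (39.4%), with a median of 0.73. Of 409 called lower at 4 h, 177 were lower and 0 higher (43.3%), with a median of -0.81. Both stand against a median of -0.03 over all genes, and all comparisons share 1 estimate of spread per gene. Of 817 genes called higher in FGF 7 h than in quiescent cells, 0 passed between late and early U0126. They had a median of 0.09 and 66.6% above 0, against 49.9% above 0 over all genes. Against the early U0126 array of experiment 1 alone this median was 0.01, with 52.5% above 0. For the 1079 called lower in FGF 7 h the median was -0.09, with 66.8% below 0. Within experiment 1 their median was -0.04, with 58.7% below 0, against a median of 0.01 over all genes. With the block 3 genes of both sets together passed.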

How the data were processed

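An Affymetrix array was run for each of 19 RNA samples. The deposited values are MAS5 signal intensity, per the submitters' processing notes, on a linear scale on which the mean of each array without the top and bottom 2% is 500. Its version is not given in the sources used here. The platform annotation names 1 gene for 34945 of the 45101 probe sets, several for 932 and none for 9160.

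An offset of 13.6 (the 20th percentile) was added before log2. A probe set had to exceed its array's 40th percentile on 2 or more arrays, and the brightest one stood for each of 14996 genes. All arrays (quiescent 1a and 1b averaged, 18 columns, 11 groups) were fitted with limma 3.58.1 in R 4.3.3, with a variance trend, two-sided tests and Benjamini-Hochberg adjustment over all genes per comparison at 0.05. The fit had 7 residual and 7.47 prior degrees of freedom. Precision is limited by the number of arrays.

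The labels' experiment numbers pair samples: deviations from the group mean correlated by 0.127 to 0.305 (median 0.211) over 21 pairs of groups, so the experiment was fitted as a block (6 residual degrees of freedom) as an alternative. Named genes were, of those passing with the same direction against each array, the 14 largest each way against FGF 7 h, 8 against early U0126 and 6 in the other comparisons, up to 4 called members of each of 34 gene lists (the 2 brightest where none was called), and 20 fixed genes. The members and lists were chosen with earlier results of these data known. Some lists share genes, among them Slc7a11 and Ddit3, so their counts are not separate. The workflow was tested on simulated data. Other alternatives were 2 scalings, 2 offsets, 2 filters, no variance trend, separate quiescent arrays, other probe sets, only the compared groups, and leaving out replicates. Promoter windows came from RefSeq (GRCm38.p6) and were searched with Python 3.11.15. Figures were drawn with matplotlib 3.10.9.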

Additional observations from a re-analysis of the deposited data

How the results depend on the processing

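The main limit is the single late U0126 array, which no alternative can leave out. Without a variance trend, 299 genes passed against FGF 7 h, 603 against quiescent, 278 against FGF 1 h and 191 of the sets chosen at 4 h (366 as reported). With the probe set of highest variance these counts were 351, 678, 342 and 240, and with the experiment as a replicate block 1123, 2289, 1858 and 752. The block gave 4 genes against early U0126 and 3 of the FGF 7 h sets. Leaving out a replicate gave 294 to 503 against FGF 7 h, 523 to 1485 against quiescent, 234 to 305 of the 4 h sets and 0 in both others. The share of lower calls moved with 75th percentile scaling to 45.5% (53.2% as reported) against FGF 7 h. It moved to 40.5% (59.8%) against quiescent and to 41.3% (53.1%) against FGF 1 h. All other settings kept these counts within 1.5 times, and those against early U0126 at 0. Plat turned to 0.55 against FGF 7 h and to 1.16 against quiescent, and Fbln2 to 0.00 against quiescent, with the probe set of highest variance. The cause was not tested. Of 96 genes named against FGF 7 h, 15 lost their call without FGF 7 h replicate 2, 9 without replicate 1 and 18 without a variance trend, while 5 gained one with the block, which ended no call there. A fit of only the compared groups was not possible against FGF 1 h, with 1 array on each side, and was not run for the gene sets.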
